A study of Equus caballus with 15 samples.

Results

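Fibroblast growth factors (FGFs) and their receptors were followed in sections of horse (Equus caballus) myotendinous junction (MTJ), muscle and tendon, with FGF7 as the leading gene. The members were the rows of the deposited gene table whose symbol was FGF7, FGF10, FGF1, FGF2, FGF9 or FGF18, which are 6 ligands, or FGFR1, FGFR2, FGFR3 or FGFR4, which are 4 receptors. They made up 10 of 30297 rows, and each symbol occurred in 1 row. The rule names symbols and no threshold, and the symbols were chosen with earlier results of these data known. The tissue came from a front limb of 5 euthanized horses numbered 14, 16, 17, 18 and 20, which were 4 mares and 1 gelding aged 5 to 7 years. The labels also give a training state, which was not compared because those of horse 14 disagree. A punch of 4 mm through the superficial digital flexor muscle and the tendon attached to it was frozen and cut on a cryostat. About 200 micrometres of each of 3 levels of the punch were sequenced as 5 MTJ, 5 muscle and 5 tendon libraries, so every horse gave 1 library of each kind. By the study's design the MTJ sections also hold muscle and tendon beside the junction itself.

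FGFs are secreted or intracellular proteins. The secreted ones bind receptor tyrosine kinases of the FGFR family together with heparan sulfate, and the bound receptor signals through adaptor proteins to the RAS and ERK kinases, which in turn induce feedback inhibitors such as the Sprouty proteins. FGF7, also called keratinocyte growth factor, is known in human and mouse as a product of connective tissue cells that acts on the splice form of FGFR2 found on epithelia. In chick embryos FGFs made by muscle act on neighbouring tendon progenitors, and in adult mouse muscle FGFR1 and FGFR4 are expressed by muscle stem cells and myoblasts.

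The libraries held between 15304218 and 19295339 counts. Levels are given as CPM, a gene's counts relative to the library's size, after scaling with TMM, a correction for a few abundant genes that fill a library. The TMM factors ran from 0.761 to 0.929 in MTJ, from 0.671 to 0.748 in muscle and from 1.46 to 1.87 in tendon libraries, so the scaling bears on every comparison with tendon. Without it the median log2 change of all genes moved by 0.23 for MTJ over muscle, by -1.01 for MTJ over tendon and by -1.23 for muscle over tendon. Differences were tested with edgeR's quasi-likelihood test with the horse as a block, over 15343 genes that passed a filter on low counts. A gene was called where the Benjamini-Hochberg adjusted p was under 0.05. Of 8 muscle fibre markers 0 were called between MTJ and muscle sections, and 8 were higher in MTJ and in muscle than in tendon sections. Of 7 tested tenocyte markers, 7 were higher in MTJ than in muscle, 6 were lower in MTJ than in tendon and 7 were lower in muscle than in tendon, but SCX, a tendon transcription factor, stayed between 0.135 and 0.291 CPM in tendon sections. Muscle transcripts were present in tendon sections too. The median level of the study's muscle reference genes there was 13.7%, 17.6%, 11.7%, 0.328% and 2.56% of that in the muscle section of horses 14, 16, 17, 18 and 20.

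FGF7 (NCBI Gene 100033961, chromosome 1) was high in MTJ and tendon sections and low in muscle sections. MTJ sections had 74.1, 114, 123, 159 and 229.8 CPM in horses 14, 16, 17, 18 and 20. The muscle sections of the same horses had 6.64, 10.4, 11.4, 15.2 and 30.9 CPM. The tendon sections had 76.0, 135, 52.0, 45.9 and 123 CPM. Every MTJ library stood above every muscle library, as for 4.61% of all genes tested, and every muscle library below every tendon library, as for 26.6%, whereas MTJ and tendon overlapped. Horse 14 was lowest and horse 20 highest in both MTJ and muscle, and the order of the 5 horses was the same in these tissues but not in tendon. Since these are bulk sections, fewer cells of a type and less RNA per cell cannot be told apart in this or any later result.

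**Figure D1:**
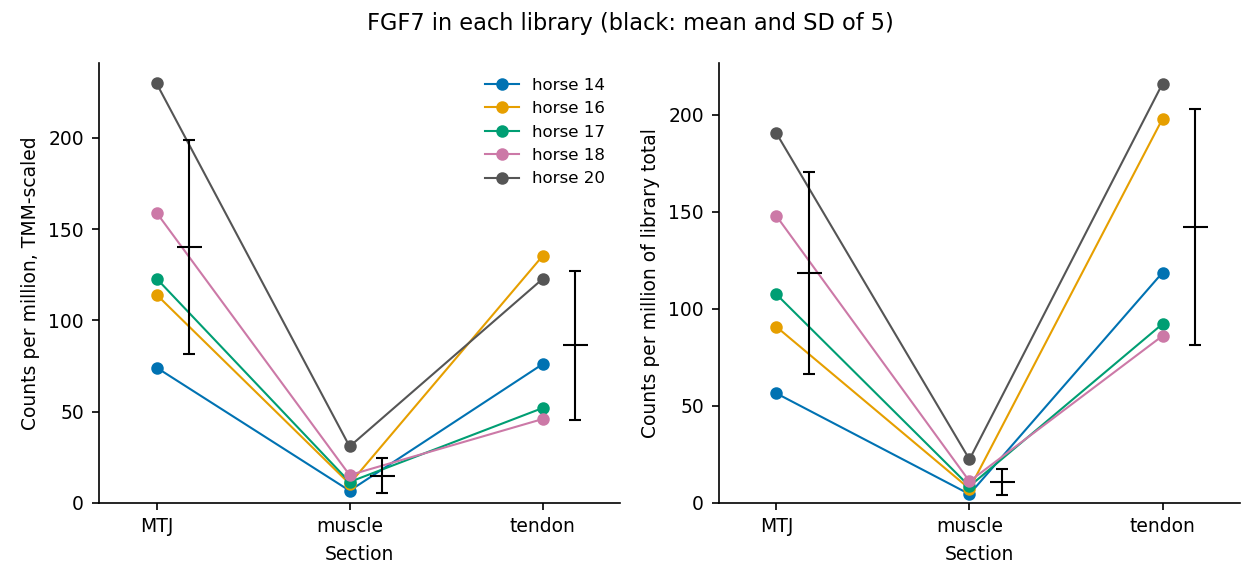
FGF7 in CPM in the MTJ, muscle and tendon section of each horse, with TMM scaling on the left and as a share of the library total on the right; lines join the sections of 1 horse, and black bars give the mean and SD of 5 libraries. With TMM scaling the MTJ mean was 140.0 CPM against 14.9 in muscle and 86.4 in tendon, and without it tendon had the highest mean, 142 CPM.

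FGF7 averaged 140.0 ± 58.6 CPM in MTJ and 14.9 ± 9.43 CPM in muscle sections (SD, n = 5 each). MTJ sections had 7.44 to 11.2 times the level of their own horse's muscle section, and the log2 fold change was 3.30 ± 0.31 (SE; edgeR adjusted p = 1.05e-04; 5 of 5 horses). Over all genes tested, 6.11% were called higher in MTJ than in muscle, and FGF7 ranked 107 of 15343 by log2 fold change. Against tendon, where FGF7 averaged 86.4 ± 40.8 CPM, the MTJ sections of horses 17, 18 and 20 were higher and those of horses 14 and 16 were lower. The log2 fold change of MTJ over tendon was 0.66 ± 0.29 and was not called by edgeR (adjusted p = 0.0572). DESeq2 called the same comparison at 0.65 (adjusted p = 0.0446), and with horses 18 and 20 as the only tendon libraries, those with the least muscle RNA, edgeR gave 1.44 (adjusted p = 5.13e-05). Leaving out horse 14 or horse 16 altogether also brought the call, at 0.87 (edgeR adjusted p = 0.0341) and 0.94 (edgeR adjusted p = 0.0139). In these horses MTJ was below tendon, and the setting with tendon libraries 18 and 20 drops their tendon too, so a larger value is partly built in. Leaving out 1 horse at a time gave 0.42 to 0.94 (highest edgeR adjusted p = 0.208). Of 13 alternatives, 8 kept the sign without a call. Without TMM factors the sign turned, to -0.33 (edgeR adjusted p = 0.264), while the median of all genes was -1.11. FGF7 was lower in muscle than in tendon, with a log2 fold change of -2.64 ± 0.31 (edgeR adjusted p = 8.2e-06, 5 of 5 horses), where 38.8% of all genes were called lower.

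No gene was called higher in MTJ than in both neighbouring tissues when the larger of the pairwise edgeR p-values was adjusted over all genes, 108 genes passed at an unadjusted p under 0.05, and DESeq2 called 3. FGF7 was not among the genes called (edgeR adjusted p = 1, from an unadjusted p of 0.0392 against tendon). No other member was called higher, and none of the 9 was called lower than in both tissues, where 83 genes passed unadjusted in edgeR and DESeq2 called 0.

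The MTJ sections were then set against a mixture built for each horse from its own muscle and tendon sections. The muscle share was the median MTJ-to-muscle ratio over 219 muscle reference genes deposited by the authors, the tendon share was the same ratio over their 322 tendon reference genes, and the log2 ratio of MTJ to mixture, each plus 0.5 CPM, was tested with limma. The muscle share was 77.6 ± 5.67% and the tendon share 15.9 ± 5.16% (SD, n = 5). FGF7 stood far above this mixture. The MTJ sections of horses 14, 16, 17, 18 and 20 had 4.69, 4.49, 5.75, 8.75 and 5.82 times the mixture's level. The log2 ratio was 2.49 ± 0.15 (SE; limma adjusted p = 0.00344; 5 of 5 horses), ranking 13 of 15343 genes, of which 0.795% were called higher. The tendon share at which the mixture would equal the MTJ level was 77.9% to 323%, and the estimated tendon shares were 12.2% to 24.5%; the source of FGF7 in the MTJ sections was not tested. FGF7 was the only member called here, and 0 of 9 were called lower, where 0.215% of all genes were. The call remained when any horse was left out (2.34 to 2.58; highest limma adjusted p = 0.0284) and was lost with horses 18 and 20 alone (2.81; limma adjusted p = 0.313), as were all 122 genes called higher.

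**Figure D2:**
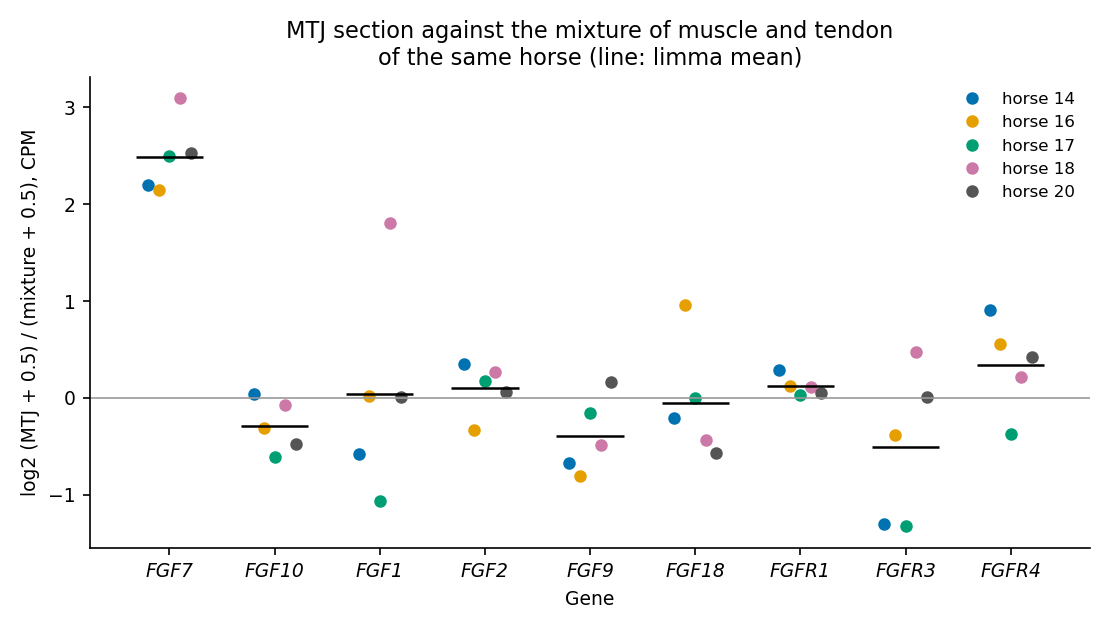
Log2 ratio of the MTJ section to the mixture of the same horse's muscle and tendon sections, both in CPM plus 0.5, for the 9 members past the low-count filter; each point is 1 horse and the line is the limma mean. FGF7 lies at 2.15 or more in all 5 horses, and the other members lie on both sides of 0 or close to it.

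The authors' deposited table gives their own log2 difference between MTJ and a predicted value for 7613 genes, and lists FGF7 with 2.23, 2.17, 2.52, 3.13 and 2.54 in horses 14, 16, 17, 18 and 20. In the authors' deposited table FGF7 has a mean of 2.52 and an FDR of 0.0293, rank 9 by the mean, and 0.394% of the listed genes are higher with an FDR under 0.05. The authors' deposited table holds 3 other members, FGFR1 at 0.12 (FDR 0.162), FGF1 at 0.04 (FDR 0.685) and FGF10 at -0.29 (FDR 1). This FDR is that of a one-sided test for values above 0, so FGF10, with a negative mean, could only have a high one. The table rests on the same libraries and is no separate evidence.

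Markers of fibre ends, and part of those of connective tissue and macrophages, were higher where FGF7 was higher than in muscle. Of 6 markers of the fibre ends at the junction, 5 were called higher in MTJ than in muscle and 5 higher than in tendon. Their summed level was 213 to 340 CPM in MTJ, 71.1 to 128 CPM in muscle and 34.6 to 211 CPM in tendon sections. Few genes carried these sums. ANKRD1 averaged 81.3 of 99.5 CPM in muscle, and SORBS2 and ANKRD1 averaged 112 and 118 of 283 CPM in MTJ. COL22A1, a collagen of the junction, had 5.47, 25.7, 3.06, 0.344 and 8.29 CPM in the tendon sections of horses 14, 16, 17, 18 and 20. The tendon sections fell in the same order for COL22A1 as for FGF7, with horse 16 highest, then 20, 14 and 17, and horse 18 lowest. No other listed fibre-end marker kept that full order in tendon. NAV3, for example, was highest in horse 20 and TIGD4 lowest in horse 17. In MTJ sections COL22A1 had 11.2, 24.9, 25.6, 16.6 and 26.2 CPM in horses 14, 16, 17, 18 and 20, an order unlike that of FGF7. Muscle sections had 0.154 to 0.383 CPM of COL22A1. Of 7 tested fibroblast markers, 3 were higher in MTJ than in muscle, and their summed level over all 8 was 1229 to 2637 CPM in MTJ, 516 to 851 CPM in muscle and 7955 to 14915 CPM in tendon. DCN alone averaged 10195 of 11709 CPM in tendon. Against tendon 0 of the 7 were higher and 6 lower in MTJ. Of 6 macrophage markers, 4 were higher in MTJ than in muscle and 4 lower in MTJ than in tendon, with sums of 123 to 219 CPM in MTJ, 44.6 to 133 CPM in muscle and 206 to 375 CPM in tendon. No marker of these 3 lists was at 0 in all libraries of a tissue, and the part of these cells in the FGF7 result was not tested.

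The genes whose log2 CPM was most like that of FGF7 over the 15 libraries were SORBS2 (r = 0.944), LCT (r = 0.944), NAV3 (r = 0.933), MMP2 (r = 0.910) and COL22A1 (r = 0.908), among 11683 genes with a symbol and a mean of 1 CPM or more. SORBS2, NAV3 and COL22A1 are also among the fibre-end markers above. SORBS2 encodes an adaptor of actin-based adhesion structures, LCT the lactase enzyme, NAV3 a microtubule-associated protein, and MMP2 a secreted protease of matrix. The r is a description across libraries that share 5 horses and 3 tissues. SORBS2 averaged 112 ± 46.0 CPM in MTJ, 14.9 ± 5.12 in muscle and 62.5 ± 30.6 in tendon sections (SD, n = 5 each). MMP2 was level between MTJ, at 44.5 ± 11.6 CPM, and tendon, at 44.5 ± 16.5 CPM, against 12.2 ± 4.35 CPM in muscle. All 5 of these genes were called above the mixture, with limma log2 ratios of 1.45 to 3.65, where 0.795% of all genes were called higher. They were picked for their likeness to FGF7 in these libraries, and FGF7 was itself above the mixture, so this is no separate evidence. After removal of the horse and tissue means the r with FGF7 was 0.806 for SORBS2, 0.698 for LCT, 0.779 for NAV3, 0.827 for MMP2 and 0.818 for COL22A1. The highest r after that step belonged to NUDT16L1 (0.961), STRIP2 (0.949), THNSL2 (0.946), NDRG2 (0.940) and RIOX2 (0.940). Their r without it was between -0.288 and -0.057. Among the 7 other members with a mean of 1 CPM or more, which leaves out FGF2 and FGFR2, the r with FGF7 over the 15 libraries ran from -0.387 for FGF10 to 0.602 for FGFR1. With the horse and tissue means removed it was -0.127 for FGF10 and -0.203 for FGFR1, and ran from -0.433 for FGF18 to 0.412 for FGF9.

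FGF10 (NCBI Gene 100052655, chromosome 21) is the ligand closest to FGF7, binds the same form of FGFR2 in human and mouse, and had a different pattern. MTJ sections had 16.9, 29.9, 10.1, 21.6 and 21.2 CPM in horses 14, 16, 17, 18 and 20. Muscle sections had 18.8, 43.3, 18.7, 30.7 and 35.9 CPM. Tendon sections had 9.21, 9.22, 5.97, 9.71 and 9.91 CPM. Each horse's order was muscle, then MTJ, then tendon, and every MTJ and every muscle library lay above every tendon library, as for 23.6% and 25.1% of all genes tested, while MTJ and muscle overlapped. FGF10 was lower in MTJ than in muscle (log2 fold change -0.57 ± 0.15; edgeR adjusted p = 0.0371), where 0.502% of all genes were called lower. That call was lost without horse 17 (-0.50; edgeR adjusted p = 0.149), 18 (-0.58; edgeR adjusted p = 0.0991) or 20 (-0.53; edgeR adjusted p = 0.153), without the horse block (-0.56; edgeR adjusted p = 0.375) and without TMM factors (-0.34; edgeR adjusted p = 0.180). FGF10 was higher in MTJ than in tendon (1.11 ± 0.15; edgeR adjusted p = 3.99e-05) and in muscle than in tendon (1.68 ± 0.15; edgeR adjusted p = 8.9e-07), where 32.8% and 34.6% of all genes were called higher. Without TMM factors the change against tendon was 0.10 in MTJ (edgeR adjusted p = 0.575) and 0.44 in muscle (edgeR adjusted p = 0.0228). Against the mixture FGF10 gave -0.29 ± 0.12 (limma adjusted p = 0.306).

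FGF1 (NCBI Gene 100033960, chromosome 14), an acidic FGF that lacks a classical secretion signal and binds all the receptors, was not called in any comparison. MTJ sections had 7.39, 13.2, 10.5, 22.4 and 12.4 CPM in horses 14, 16, 17, 18 and 20, muscle sections had 11.2, 13.6, 21.0, 5.59 and 12.1 CPM, and tendon sections had 16.3, 13.8, 27.1, 13.3 and 22.7 CPM. The 3 tissues overlapped, and horse 18 was the highest of the MTJ and the lowest of the muscle libraries. The log2 fold change was 0.11 ± 0.34 for MTJ over muscle (edgeR adjusted p = 0.888), -0.45 ± 0.33 for MTJ over tendon (edgeR adjusted p = 0.237) and -0.56 ± 0.33 for muscle over tendon (edgeR adjusted p = 0.137). Without horse 18 the change of MTJ over tendon was -0.85 and called (edgeR adjusted p = 0.0027), and that of MTJ over muscle turned to -0.38 (edgeR adjusted p = 0.408). Muscle over tendon was called without horse 18 (-0.48; edgeR adjusted p = 0.0465), with the 10 libraries of these tissues alone (-0.65; edgeR adjusted p = 0.0133) and without TMM factors (-1.79; edgeR adjusted p = 4.03e-04), and the last setting also called MTJ over tendon (-1.46; edgeR adjusted p = 0.00204).

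FGF9 (NCBI Gene 100050353, chromosome 17) and FGF18 (NCBI Gene 100629648, chromosome 14) signal mainly through FGFR3 and the mesenchymal splice forms of the receptors and are known from cartilage and bone, and both were highest in tendon sections. FGF9 had 3.77, 3.15, 4.84, 4.67 and 6.81 CPM in the MTJ sections of horses 14, 16, 17, 18 and 20, 1.17 to 1.91 CPM in muscle, and 36.7, 39.4, 18.4, 32.5 and 41.8 CPM in tendon. The 3 tissues did not overlap, with tendon highest and muscle lowest in every horse. Of all genes tested, 4.61% had MTJ wholly above muscle. FGF9 rose in MTJ against muscle (log2 fold change 1.70 ± 0.26; edgeR adjusted p = 0.00208) and fell in MTJ against tendon (-2.84 ± 0.22; edgeR adjusted p = 7.87e-07), where 34.5% of all genes were called lower and 21.9% did not overlap in that direction. The MTJ level was 8.01% to 26.3% of that in the tendon of the same horse. FGF9 belongs to the authors' tendon reference genes, chosen on these samples and used for the tendon share, so its place between the tissues is no independent evidence. Its ratio to the mixture was -0.39 ± 0.15 (limma adjusted p = 0.293).

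FGF18 was sparse outside tendon, with 45 counts over the 5 MTJ libraries, 6 over the muscle libraries and 424 over the tendon libraries. That is 0.135 to 1.32 CPM in MTJ, 0 to 0.168 CPM in muscle and 2.11 to 4.24 CPM in tendon. Every tendon library was above all others, and MTJ and muscle overlapped. FGF18 passed the low-count filter only through the tendon libraries, so a call above tendon was hardly possible. Of all genes tested, 21.9% had MTJ wholly below tendon and 26.6% muscle wholly below tendon. FGF18 was lower in MTJ than in tendon (log2 fold change -2.48 ± 0.51; edgeR adjusted p = 9.91e-04) and in muscle than in tendon (-4.97 ± 0.67; edgeR adjusted p = 2.9e-05), and it was not called between MTJ and muscle (2.48 ± 0.77; edgeR adjusted p = 0.0837). DESeq2 called that rise (2.47; adjusted p = 0.0286), as did edgeR without TMM factors (2.68; adjusted p = 0.0362). Most of its MTJ counts, 18 and 16, came from horses 16 and 17.

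FGF2 (NCBI Gene 100033955, chromosome 2), the basic FGF used to grow muscle stem cells in culture, was at the edge of detection. It had 11 counts over the 5 MTJ libraries, 1 over the muscle libraries and 65 over the tendon libraries, and its mean was under 1 CPM in every tissue. MTJ libraries had 0 to 4 counts each and tendon libraries 11 to 19. FGF2 passed the low-count filter only through the tendon libraries, so a call above tendon was hardly possible. It was called lower in MTJ than in tendon (log2 fold change -1.68 ± 0.55; edgeR adjusted p = 0.0163), a rate ratio of 0.314 with an exact 95% interval of 0.149 to 0.599 that covers counting error only. That call was lost without horse 20 (-1.56; edgeR adjusted p = 0.057), with the tendon libraries of horses 18 and 20 alone (-1.64; edgeR adjusted p = 0.206) and with no low-count filter (-1.72; edgeR adjusted p = 0.0637). With 1 count in muscle, the rate ratio of MTJ to muscle was 9.42 with an interval of 1.37 to 406. Muscle over tendon was called lower too (edgeR adjusted p = 3.8e-04), with that 1 count as the muscle value.

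**Figure D3:**
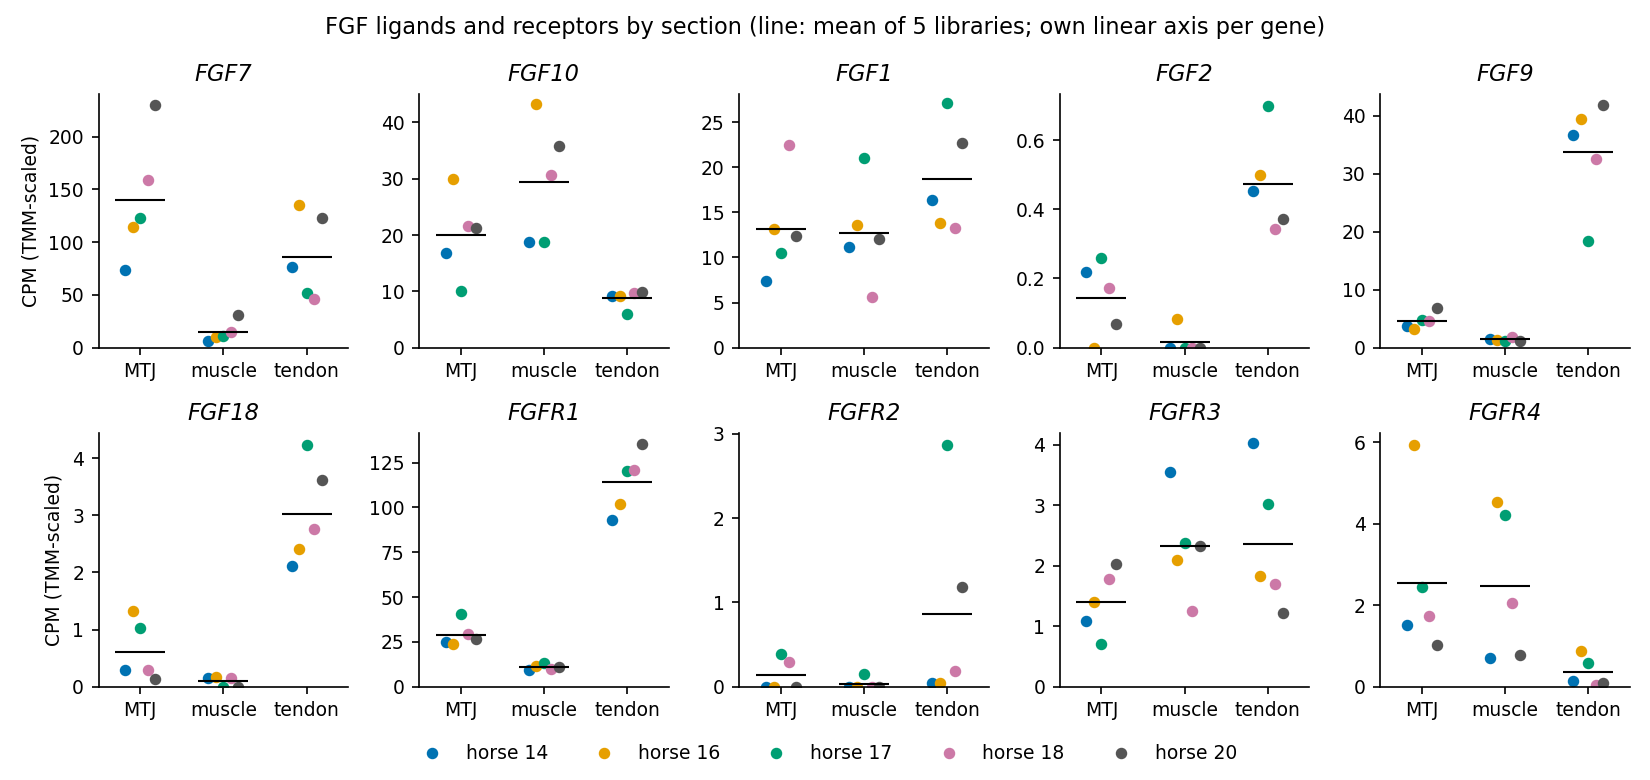
CPM of the 10 members in MTJ, muscle and tendon sections, 1 panel per gene with its own linear axis from 0; points are single horses and the line is the mean of 5 libraries. FGF7 is high in MTJ and tendon, FGF10 and FGFR4 are lowest in tendon, and FGF9, FGF18 and FGFR1 are highest there.

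FGFR1 (NCBI Gene 100057614, chromosome 27), the receptor most widely expressed in connective tissue and in myoblasts, was highest in tendon. MTJ sections had 24.9, 23.9, 40.3, 29.1 and 26.4 CPM in horses 14, 16, 17, 18 and 20, muscle sections 9.50, 11.3, 13.3, 9.78 and 11.2 CPM, and tendon sections 92.8, 102, 120.2, 121 and 135.5 CPM. The 3 tissues did not overlap. Of all genes, 4.61% had MTJ wholly above muscle, 21.9% MTJ wholly below tendon and 26.6% muscle wholly below tendon. FGFR1 rose in MTJ against muscle (log2 fold change 1.38 ± 0.12; edgeR adjusted p = 5.2e-05) and fell in MTJ against tendon (-1.99 ± 0.11; edgeR adjusted p = 3.24e-07) and in muscle against tendon (-3.38 ± 0.12; edgeR adjusted p = 6.85e-09). In these comparisons 6.11% of all genes were called higher, 34.5% lower and 38.8% lower. The MTJ sections had 1.02 to 1.22 times the mixture's level, which was not called (0.12 ± 0.08; limma adjusted p = 0.501). The tendon share needed to give the MTJ level was 12.9% to 25.2%. FGFR1 also belongs to the authors' tendon reference genes, chosen on these samples, so that closeness is partly built in. Its place between the tissues is no independent evidence either.

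FGFR2 (NCBI Gene 100033956, chromosome 1), the receptor through which FGF7 and FGF10 act on epithelia, was rarely counted outside tendon and did not pass the low-count filter. MTJ sections had 0, 0, 6, 5 and 0 counts in horses 14, 16, 17, 18 and 20, muscle sections 0, 0, 2, 0 and 0, and tendon sections 1, 1, 78, 6 and 35. The tendon libraries of horses 17 and 20 were the highest, and all others stayed at or under 6 counts. A count of 0 allowed up to 0.217 CPM in the MTJ section of horse 14 and up to 0.252 CPM in the muscle section of horse 16. The summed rate in MTJ was 0.169 times that in tendon (exact 95% interval 0.0819 to 0.312, counting error only) and 4.71 times that in muscle (1.03 to 43.8), and it was not tested across horses. Counts per gene do not separate the splice forms of FGFR2. The 5 epithelial markers summed to 0.290 to 1.15 CPM in MTJ, 0.233 to 2.27 CPM in muscle and 1.06 to 4.60 CPM in tendon sections, and KRT14 and KRT18 were at 0 in all muscle libraries.

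FGFR3 (NCBI Gene 100034114, chromosome 3), a receptor best known from growth plate cartilage, was low in all tissues, at 1.40 ± 0.527 CPM in MTJ, 2.32 ± 0.824 CPM in muscle and 2.36 ± 1.15 CPM in tendon (SD, n = 5 each). The groups overlapped, and no comparison passed. Its log2 fold change was -0.64 ± 0.40 for MTJ over muscle (edgeR adjusted p = 0.403), -0.64 ± 0.39 for MTJ over tendon (edgeR adjusted p = 0.159) and -0.01 ± 0.37 for muscle over tendon (edgeR adjusted p = 0.991). Without TMM factors both changes against tendon were called, at -1.64 in MTJ (edgeR adjusted p = 0.0021) and -1.23 in muscle (edgeR adjusted p = 0.00903).

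FGFR4 (NCBI Gene 100068679, chromosome 14), known in mouse from myoblasts and regenerating fibres, was lowest in tendon. It had 1.52, 5.94, 2.45, 1.73 and 1.01 CPM in the MTJ sections of horses 14, 16, 17, 18 and 20, 0.695, 4.54, 4.22, 2.06 and 0.778 CPM in muscle, and 0.151, 0.872, 0.589, 0.0313 and 0.101 CPM in tendon. Every MTJ library was above every tendon library, as for 23.6% of all genes tested, while muscle overlapped with both. FGFR4 was higher in MTJ than in tendon (log2 fold change 3.05 ± 0.42; edgeR adjusted p = 4.69e-05) and in muscle than in tendon (2.94 ± 0.42; edgeR adjusted p = 4.84e-05), and was not called between MTJ and muscle (0.11 ± 0.37; edgeR adjusted p = 0.896). The satellite cell markers summed to 15.4 to 22.9 CPM in MTJ, 14.6 to 29.4 CPM in muscle and 0.438 to 4.87 CPM in tendon sections, both of the 2 tested being higher in MTJ and in muscle than in tendon. PAX7, which defines these cells, had 7 counts over the MTJ, 8 over the muscle and 2 over the tendon libraries, and the part of such cells in the FGFR4 result was not tested.

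**Figure D4:**
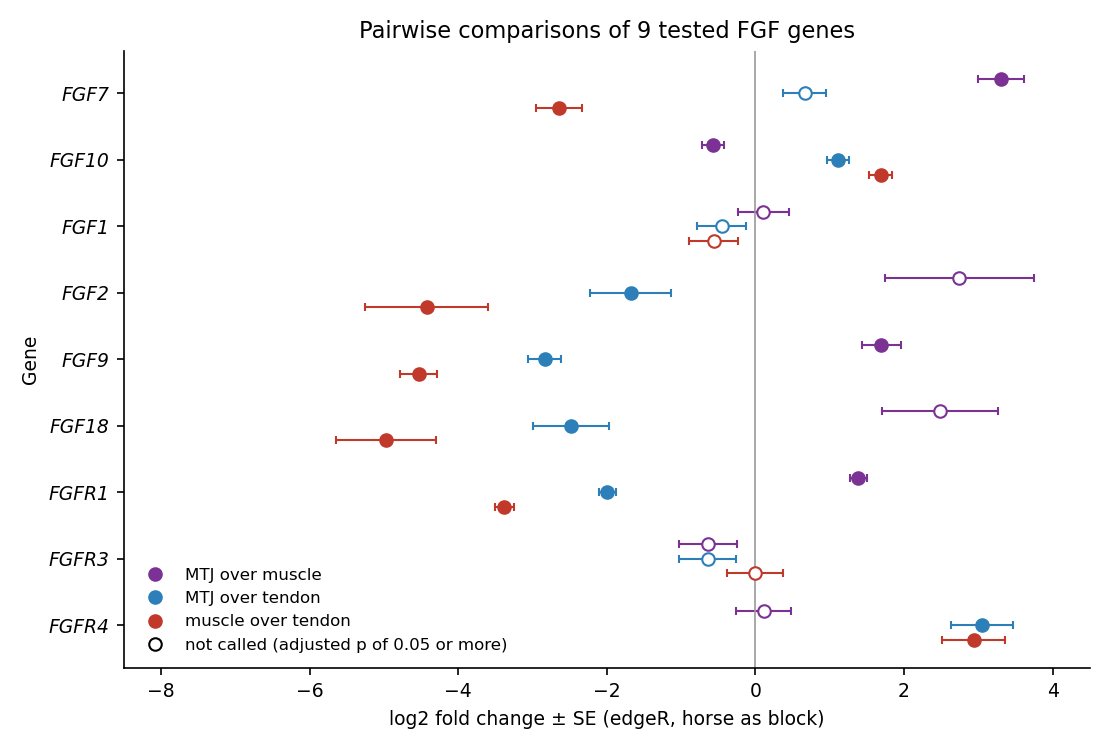
Log2 fold change with its SE for the 9 members tested, for MTJ over muscle, MTJ over tendon and muscle over tendon from edgeR with the horse as a block; filled points passed an adjusted p of 0.05 and open points did not. FGF7 is the only member with a positive MTJ-over-tendon estimate, 0.66 (-0.33 without TMM factors), beside a called rise over muscle, 3.30.

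In all, 3 of 9 members were called higher in MTJ than in muscle (FGF7, FGF9 and FGFR1) and 1 lower (FGF10), where 6.11% of all genes were higher and 0.502% lower. Against tendon, 2 were higher in MTJ (FGF10 and FGFR4) and 4 lower (FGF2, FGF9, FGF18 and FGFR1), near the shares of all genes, 32.8% higher and 34.5% lower. In muscle the same 2 were higher and 5 lower than in tendon, FGF7 being the fifth, where 34.6% of all genes were higher and 38.8% lower. FGF2 and FGF18 passed the low-count filter only through their tendon libraries, so they could hardly have been called higher outside tendon. Both are among the lower members and enter the medians that follow. The median log2 fold change of the 9 was 1.38 for MTJ over muscle, -0.64 for MTJ over tendon and -2.64 for muscle over tendon, against -0.00, -0.10 and -0.13 over all genes tested. Counts against tendon depend on the scaling. Without TMM factors 1965 genes were higher and 10833 lower in MTJ than in tendon, against 5031 and 5292 with them, and 1 member was higher and 6 lower. For muscle over tendon the same change gave 1911 genes higher and 11368 lower, against 5312 and 5948, and 2 members higher and 7 lower. The 3 pairwise comparisons share libraries and are not independent of each other.

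Of 16 other FGF ligands, 4 passed the low-count filter, and 0 were called between MTJ and muscle, where 6.11% of all genes were higher. FGF13, an intracellular FGF that binds sodium channels, averaged 62.5 ± 5.10 CPM in MTJ and 67.9 ± 6.22 CPM in muscle against 10.1 ± 5.69 CPM in tendon sections, and rose in MTJ over tendon (log2 fold change 2.74 ± 0.32; edgeR adjusted p = 1.32e-05). FGF6, a ligand known from mouse muscle, varied widely between horses: MTJ sections had 0.674 to 2.54 CPM, and muscle sections 3.09, 8.91, 11.3, 1.69 and 0.700 CPM in horses 14, 16, 17, 18 and 20. Its rise in MTJ over tendon (2.12 ± 0.81; edgeR adjusted p = 0.0357) was lost without TMM factors, without the horse block, with the MTJ and tendon libraries alone, and without horse 17, 18 or 20, at 1.19 to 2.27 (edgeR adjusted p = 0.0676 to 0.194). FGF14, another intracellular FGF, had 12 counts in MTJ and 1 in muscle against 141 in tendon, and was lower in MTJ than in tendon (-2.63 ± 0.58, edgeR adjusted p = 0.00152). It passed the low-count filter only through the tendon libraries, so a call above tendon was hardly possible.

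Of 13 co-receptors and carriers, 7 were tested. NCAM1, an adhesion molecule of nerve, Schwann cells and immature fibres that can bind FGFRs, was highest in MTJ sections by the mean. MTJ sections had 157, 137, 130.5, 126 and 193 CPM in horses 14, 16, 17, 18 and 20, muscle sections 15.4, 29.2, 26.5, 35.0 and 7.62 CPM, and tendon sections 46.2, 136, 10.2, 1.66 and 48.2 CPM. Every MTJ library was above every muscle library, as for 4.61% of all genes tested, and the tendon of horse 16 reached the MTJ range. NCAM1 was above the mixture (log2 ratio 2.71 ± 0.30; limma adjusted p = 0.0179) and above tendon (2.07 ± 0.78; edgeR adjusted p = 0.0336), and missed the threshold over muscle (2.69 ± 0.78; edgeR adjusted p = 0.0632). The tendon call was lost without horse 14, 17 or 20, without the horse block and without TMM factors (edgeR adjusted p up to 0.194), and the mixture call without horse 14, 17 or 18 (limma adjusted p = 0.0534 to 0.0902). FGFRL1, a receptor without a kinase domain, was lower in MTJ than in tendon (-2.58 ± 0.26; edgeR adjusted p = 3.61e-06), at 2.56 ± 1.54 CPM in MTJ and 13.8 ± 5.05 CPM in tendon.

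Of 20 genes that make or edit heparan sulfate, 15 were tested, 2 were higher in MTJ than in muscle and 0 lower, where 6.11% of all genes were higher. Against tendon 2 were higher and 7 lower in MTJ, and 3 higher and 9 lower in muscle, where 34.5% and 38.8% of all genes were lower. Both genes higher than in muscle are the extracellular sulfatases that remove sulfate groups and can reduce FGF binding. SULF1 averaged 25.3 ± 6.67 CPM in MTJ, 8.43 ± 2.01 CPM in muscle and 87.1 ± 21.3 CPM in tendon (SD, n = 5 each), with a log2 fold change of 1.56 ± 0.20 for MTJ over muscle (edgeR adjusted p = 7.4e-04). SULF2 averaged 44.4 ± 11.4, 18.1 ± 3.22 and 188 ± 32.1 CPM in MTJ, muscle and tendon, with 1.27 ± 0.18 (edgeR adjusted p = 9.8e-04). For both, all MTJ libraries lay above muscle, as for 4.61% of all genes tested, and below tendon, as for 21.9%. The ratio to the mixture was 0.33 and 0.01, neither called by limma. The list's median was 0.38 for MTJ over muscle and -0.94 for muscle over tendon. Without TMM factors 5 of the 15 were higher and 0 lower in MTJ than in muscle, where 2354 of the 15343 genes were higher.

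Of 17 receptor adaptors and relays, all tested, 0 were called between MTJ and muscle, with a median of 0.07. Over all genes 6.11% were called higher and 0.502% lower in that comparison. Against tendon 4 were higher and 8 lower in MTJ, where 32.8% of all genes were higher and 34.5% lower. PIK3R1, a regulatory subunit of PI3-kinase, was among the lower ones, at 105 ± 21.9 CPM in MTJ and 370.2 ± 33.1 CPM in tendon (log2 fold change -1.84 ± 0.12; edgeR adjusted p = 4.7e-07). CRKL, an adaptor, was higher in MTJ (1.25 ± 0.13; edgeR adjusted p = 6.05e-06), a call lost without TMM factors (0.25; edgeR adjusted p = 0.0982). Without these factors 0 of the 17 were higher and 15 lower in MTJ than in tendon, where 1965 of the 15343 genes were higher and 10833 lower. The median of the 17 was then -1.43, against -1.11 over all genes. Against muscle 6 of the 17 were then higher in MTJ and 0 lower, where 2354 of the 15343 genes were higher.

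Of 13 genes of the RAS and ERK cascade, all tested, 8 were higher and 1 lower in MTJ than in tendon, with a median of 0.34. Over all genes 32.8% were higher and 34.5% lower. Without TMM factors 2 of the 13 were higher and 7 lower, with a median of -0.67 where that of all genes was -1.11. In that setting 1965 of the 15343 genes were higher and 10833 lower. The 8 muscle fibre markers, all higher in MTJ than in tendon, summed to 178905 to 248145 CPM in MTJ and 417 to 53090.2 CPM in tendon sections. Their part in the counts of RAS and ERK genes was not tested. MAPK3, which is ERK1, was the lower one, at 13.9 ± 1.64 CPM in MTJ and 35.9 ± 8.14 CPM in tendon. Between MTJ and muscle 1 was called, MAP2K1, at 14.7 ± 3.54 CPM in MTJ and 150.1 ± 123 CPM in muscle (-2.95 ± 0.47; edgeR adjusted p = 0.00246), where muscle sections ran from 21.7 to 295 CPM.

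Of 11 tested feedback inhibitors of the pathway, 7 were lower and 2 higher in MTJ than in tendon, and 8 were lower and 2 higher in muscle than in tendon, with a median of -1.12 and -1.39, where 34.5% and 38.8% of all genes were lower. Without TMM factors 9 were lower and 2 higher in MTJ than in tendon, with a median of -2.13. In that setting 10833 of the 15343 genes were lower and 1965 higher, and the median of all genes was -1.11. SPRY1 and SPRY2, Sprouty proteins that block RAS activation, had log2 fold changes of -1.42 ± 0.13 (edgeR adjusted p = 1.7e-06) and -1.36 ± 0.19 (edgeR adjusted p = 4.77e-05) for MTJ over tendon. SPRED1, a related inhibitor, was the only one called between MTJ and muscle: MTJ sections had 6.16 to 12.7 CPM, muscle sections 3.17 to 7.44 CPM and tendon sections 26.3 to 36.8 CPM, and the rise over muscle was 0.90 ± 0.16 (edgeR adjusted p = 0.00525), with 5 of 5 horses higher although the ranges overlap. Without TMM factors 5 of the 11 were higher and 0 lower in MTJ than in muscle, where 2354 of the 15343 genes were higher. LRIG1, a membrane inhibitor of receptor kinases, was higher in MTJ than in tendon (1.38 ± 0.19; edgeR adjusted p = 4.47e-05).

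Of 12 genes known to respond to ERK signalling, 8 were lower and 1 higher in MTJ than in tendon, with a median of -1.02, where 34.5% of all genes were lower. Without TMM factors 10 were lower and 0 higher, where 10833 of the 15343 genes were lower. ETV1, an ETS factor, fell in MTJ against tendon (log2 fold change -2.12 ± 0.28; edgeR adjusted p = 3.55e-05). CCND1, which is cyclin D1, averaged 14.8 ± 6.75 CPM in MTJ, 6.86 ± 4.27 CPM in muscle and 69.1 ± 20.5 CPM in tendon, and was called higher in MTJ than in muscle (1.15 ± 0.24; edgeR adjusted p = 0.0127), which was lost without horse 18 (0.96; edgeR adjusted p = 0.0511) or 20 (1.11; edgeR adjusted p = 0.0592) and without the horse block (1.11; edgeR adjusted p = 0.186). ETV4, another ETS factor, was lower in MTJ than in muscle (-3.07 ± 0.62; edgeR adjusted p = 0.0109), at 0.404 to 1.25 CPM in MTJ and 1.10 to 15.6 CPM in muscle, and lost the call without horse 14, 16 or 17 (edgeR adjusted p = 0.0527 to 0.0677). Against the mixture 0 of the 12 were called, and of the 79 tested genes of the 7 lists NCAM1 was the only one called. Lower in MTJ than in tendon, as most feedback inhibitors and targets were, were also 6 of 7 endothelial, 6 of 7 fibroblast, 6 of 7 tenocyte and 4 of 6 macrophage markers, whose part was not tested.

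**Figure D5:**
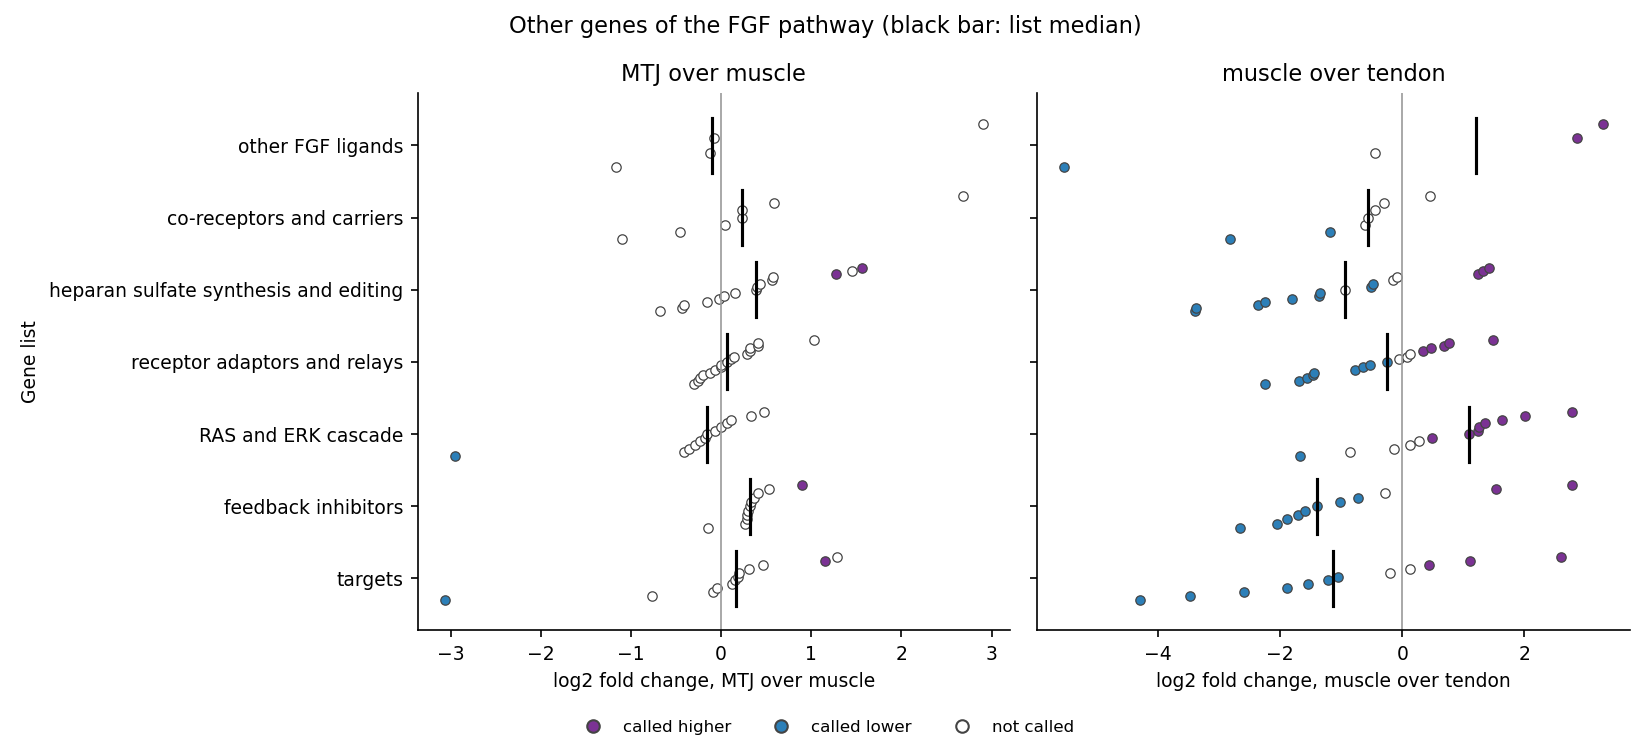
Log2 fold changes of the tested genes in 7 lists of the FGF pathway, for MTJ over muscle on the left and muscle over tendon on the right; each point is 1 gene, coloured where edgeR called it, and the black bar is the list's median. Few genes of the lists were called between MTJ and muscle, as for all genes, of which 6.11% were called higher and 0.502% lower. Most heparan sulfate genes, feedback inhibitors and targets were lower in muscle than in tendon, with medians of -0.94, -1.39 and -1.14. In that comparison 38.8% of all genes were called lower and the median of all genes was -0.13 (-1.36 without TMM factors).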

How the data were processed

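The authors deposited whole-number read counts per gene for 15 libraries, with NCBI gene numbers, symbols and chromosomes, per the file headers. Also deposited by the authors were reference gene lists for either tissue, and a table with log2 differences between MTJ and a predicted value per horse and an FDR, which is an adjusted p-value, per the file headers. This FDR was recovered here by a one-sided test for a mean of the 5 values above 0 with Benjamini-Hochberg adjustment. The submitters' processing notes name EquCab3.0 and DESeq2 1.26.0. Aligner, counter and strand use were not given in the sources read, so reads of overlapping genes could not be told apart. A further 15 columns of transformed values were not used. Deposited gene lengths could not be checked, so levels were not compared between genes.

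Samples were grouped by the tissue and horse in the labels; the training state was not compared, since the labels of horse 14 disagree. RNA was selected with oligo dT or by depletion of ribosomal RNA, per the labels' protocols, which do not say which. Counts were fitted with edgeR 4.0.16 in R 4.3.3 (filterByExpr by tissue, TMM, tissue and horse, all 15 libraries), which removed 14954 genes. Pairing comes from the labels: the sections with 1 number are from 1 animal. Deviations from tissue means correlated at 0.153 to 0.637 in 15 same-horse pairs and at -0.365 to 0.193 in 60 others. No libraries were identical. Mixture ratios were tested with limma 3.58.1 on log2 values with a pseudocount of 0.5 CPM. The alternatives were DESeq2 1.42.0, its size factors, library totals, other filters and pseudocounts, no block, fewer libraries and other mixture shares. The edgeR, DESeq2 and mixture code was tested on simulated data, where mixture shares came out somewhat high, which lowers the ratio and makes calls below the mixture less sure. Intervals and limits for counts of 0 (3 counts) cover counting error only. The members, the gene lists and the rule for named genes (the 3 lowest p per list and comparison, and the 5 most like FGF7) were chosen with earlier results of these data known. 1 gene that this rule named is not reported here.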

Additional observations from a re-analysis of the deposited data

Results flagged for a closer look

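Of 39 groups of 5 values of the members, 3 held a library set apart from the other 4 by a gap large against the group's range, where chance gives about 1 in 20 groups. FGF10 was lowest in the tendon section of horse 17, at 5.97 CPM, with the next library at 9.21 CPM. FGF2 was highest in the muscle section of horse 16, at 0.0840 CPM, which is its 1 count in muscle. FGFR2 was highest in the muscle section of horse 17, at 0.153 CPM, which is its 2 counts there. For FGF2 and FGFR2 the other 4 muscle libraries had 0 counts, so any count would be flagged and the chance rate does not apply.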

How the results depend on the processing

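Of 462 member values under alternatives, 422 kept direction and side of the threshold, 17 changed sign, 13 gained a call and 10 lost one; of 793 values of other named genes these were 757, 1, 0 and 35. FGF7 kept its calls for MTJ over muscle (3.23 to 3.54) and muscle over tendon (-3.87 to -1.89) in all 13 alternatives each. Where values changed the cause was not tested, and the few counts of FGF2 and FGFR2 limit what could be detected for them.

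Without TMM factors MTJ over muscle gave 2354 genes higher and 12 lower (0 members lower), MTJ over tendon 1965 higher (1 member) and 10833 lower, muscle over tendon 1911 higher and 11368 lower; MTJ over tendon was then -0.33 for FGF7, and muscle over tendon -0.90 for SOS1. With the 10 libraries of the tissues compared, MTJ over muscle gave 1479 higher and 1381 lower. Genes lower in MTJ than in muscle numbered 285 by DESeq2, 130 with its size factors, 37 with no filter and 456 with tendon libraries 18 and 20 alone. DESeq2 gave 3 genes higher than both neighbours and 0.65 for FGF7 over tendon, which was 1.44 with tendon libraries 18 and 20 alone. Without the replicate block, 13 genes and 0 members were lower in MTJ than in muscle, 81 genes were below the mixture, and FGF1 was at -0.047 against it; it changed no FGF7 call.

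Against the mixture, genes higher and lower numbered 63 and 12 with a pseudocount of 0.1 CPM, 281 and 86 with 2 CPM, and 0 and 0 with horses 18 and 20 alone (0 members; FGF7 at 2.81, FGFR3 at 0.24). Shares summing to 1 gave 74 higher and FGF1 at -0.057, mean shares 12 lower, and a pseudocount of 2 CPM 0.0020 for FGF18. FGFR3 was 0.014 for MTJ over tendon and 0.74 for muscle over tendon with tendon libraries 18 and 20 alone, and 0.014 (DESeq2) and 0.016 (its size factors) for muscle over tendon.

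Leaving out 1 horse at a time gave, for MTJ over muscle, 565 to 708 genes higher, 15 to 39 lower, 0 to 1 members lower, 3.27 to 3.43 for FGF7, -0.38 to 0.38 for FGF1 and -0.089 to 0.34 for FGFR4. For MTJ over tendon it gave 4690 to 4851 higher (2 to 3 members), 4687 to 5031 lower (3 to 5 members) and 0.42 to 0.94 for FGF7. For muscle over tendon it gave 5042 to 5143 higher, 5517 to 5682 lower (5 to 6 members), -2.87 to -2.34 for FGF7 and -0.18 to 0.11 for FGFR3. For MTJ over both it gave 0 to 1 higher and 0 to 1 lower. Against the mixture it gave 7 to 58 higher, 0 to 23 lower, 2.34 to 2.58 for FGF7, -0.41 to 0.31 for FGF1 and -0.30 to 0.077 for FGF18.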
